A study of Drosophila melanogaster with 6 samples.

Results

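The transcripts described here read lower after RNA interference (RNAi) against either of 2 insulator proteins of the fly, CG9740 and CP190, than after control RNAi. Each is a probe set, a group of short probes that measures 1 transcript or a few related ones. A probe set was taken when all 4 knockdown arrays lay below both LacZ RNAi arrays, when its mean log2 difference to LacZ RNAi was at most -0.4 in each knockdown, and when its highest group mean was at least 6. These conditions found 39 of 18769 probe sets. The mirrored conditions, with higher values in both knockdowns, found 78. The LacZ RNAi arrays serve both comparisons, so a LacZ RNAi value that is high by chance lowers both differences at once. All differences of the members to LacZ RNAi below are therefore a description of how the members were chosen.

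The arrays were hybridised with RNA of S2 cells, a Drosophila melanogaster line from late embryos with hemocyte-like (blood cell-like) properties. There were 3 groups of 2 arrays each, CG9740 RNAi, CP190 RNAi and LacZ RNAi. LacZ is a bacterial gene that flies lack, and the series uses its RNAi as the control, so cells of every group had received RNAi. The series calls the 2 arrays of a group biological replicates, and no dose or time of RNAi is given in the labels. The RNA was amplified before labelling, per the labels. Values are log2 expression levels as the authors deposited them.

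Insulators are DNA elements that limit which enhancers reach a promoter and that mark borders of chromatin domains. CP190 does not find most of its sites alone and is recruited by DNA-binding insulator proteins such as su(Hw), CTCF and BEAF-32. The gene CG9740 is now called Ibf2 (RefSeq, Release 6 plus ISO1 MT assembly), and Ibf2 and its partner Ibf1 are DNA-binding proteins with BED-type zinc fingers that associate with CP190. A transcript that reads lower after loss of such proteins can be a direct or an indirect consequence, and expression arrays alone do not separate the 2.

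Both RNAi targets were lower in their own knockdown. Ibf2 (1639645_at) read 7.05 and 7.30 in the CG9740 knockdown, 9.33 and 9.52 in the CP190 knockdown, and 9.30 and 9.64 in the LacZ control. It fell by 2.29 on the log2 scale in the CG9740 knockdown (SE 0.14, limma adjusted p 0.00145), and its difference in the CP190 knockdown was -0.05 (limma adjusted p 0.955). Cp190 (1631940_s_at) read 11.80 and 11.54 in the CG9740 knockdown, 9.71 and 9.72 in the CP190 knockdown, and 11.81 and 11.92 in the LacZ control, and it fell by 2.15 in the CP190 knockdown (SE 0.11, limma adjusted p 0.000679). Neither target gene is a member. Ibf1 (1630527_at), the gene beside Ibf2 on the chromosome, read 9.57 and 9.39 in the CG9740 knockdown, 8.50 and 8.52 in the CP190 knockdown, and 8.58 and 8.57 in the LacZ control. It rose in the CG9740 knockdown by 0.91 (SE 0.09, limma adjusted p 0.0248).

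Of 10 hemocyte markers, 7 had a LacZ RNAi level above 6.07, the level of the brightest of 27 Bacillus control probe sets, which match no fly RNA. These were eater, Hml, srp, Pxn, Col4a1, Sr-CI and He, while NimC1, Ppn and vkg were below that level. None of the measured markers of muscle or fat body and not the glial marker repo was above it, whereas the neuronal genes brp, elav and nSyb, and bam, tj and Try29F, were. Array medians lay between 5.67 and 5.71, on the log2 scale.

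Of the 39 members, 34 are assigned to 1 gene each in the platform annotation, which gives 33 genes, because CG32982 has 2 members. Another 4 members, 1635227_at, 1637182_at, 1624070_at and 1641227_at, are not listed in that annotation, and 1641693_s_at is assigned to several genes, so these 5 are given by identifier. The median log2 difference to LacZ RNAi was -0.58 in the CG9740 knockdown and -0.61 in the CP190 knockdown, against -0.02 and -0.01 over all probe sets. In 6 members the difference was at least 2-fold in both knockdowns, as in 0.0426% of all probe sets. The mean of both differences was at most -1 in 6 members, between -1 and -0.6 in 15 and between -0.6 and -0.4 in 18. The median LacZ RNAi level of the members was 8.89, and the selection itself sets a lower limit to it. In 33 members all 3 group means lay above the brightest Bacillus control. In the other 6, DAAM, CG34030, Sfp26Ad, l(3)neo38, 1637182_at and CG32982 (1634406_at), at least 1 knockdown mean lay below it, so their differences below are measured values that give no exact fold.

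**Figure D1:**
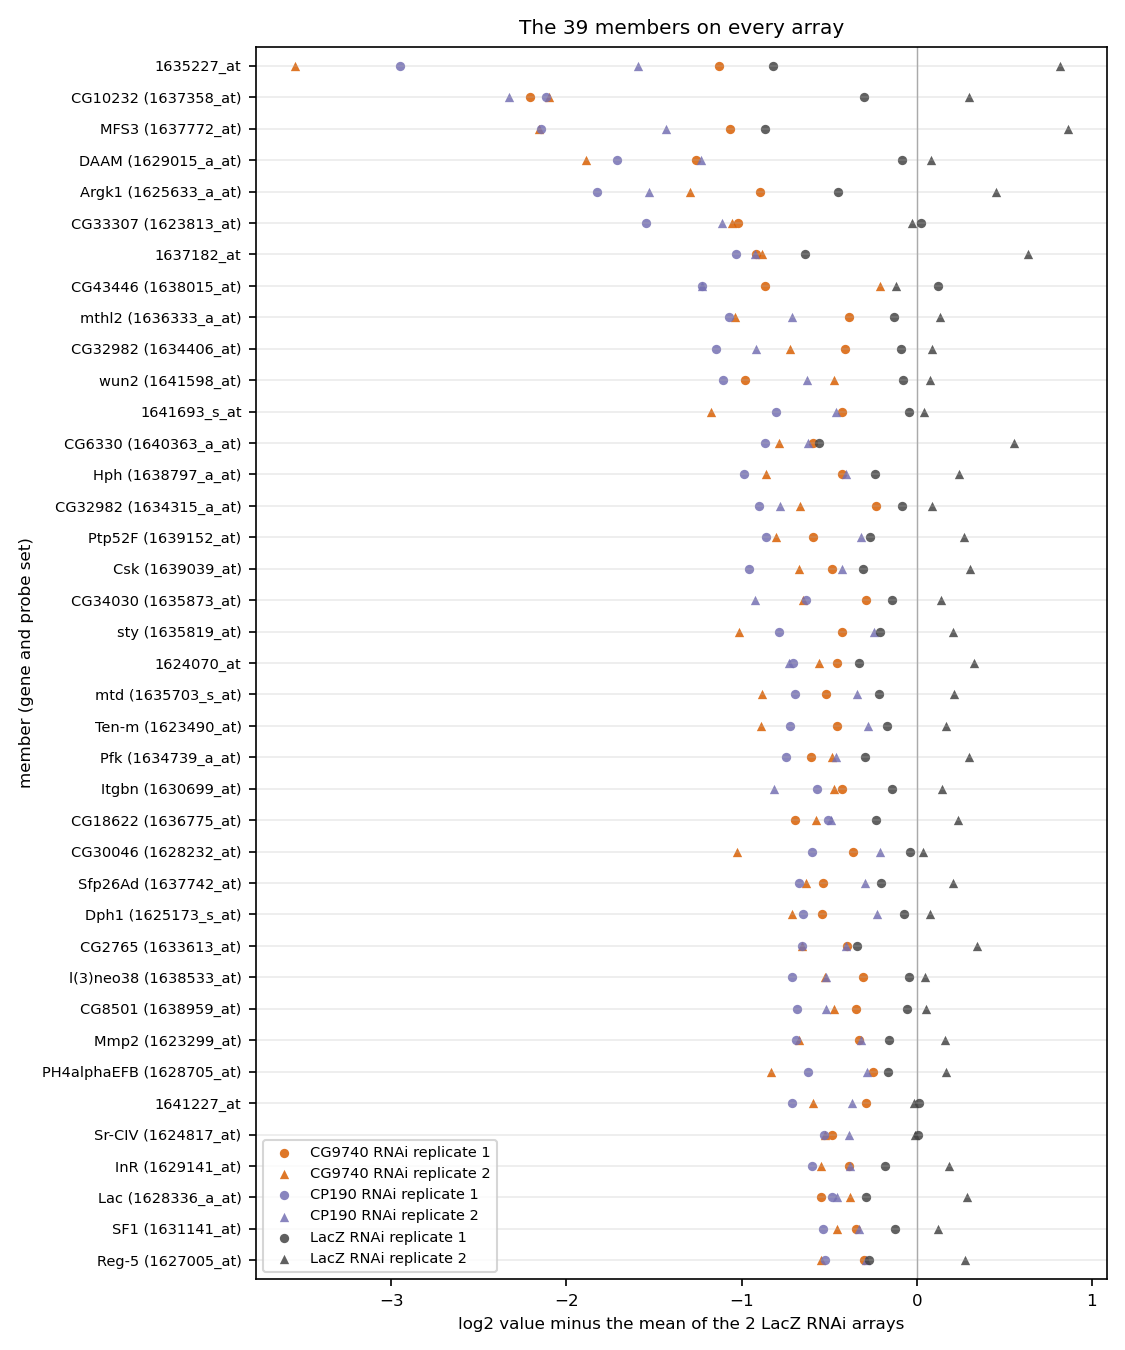
Every member on every array, ordered by the mean of its 2 differences (lowest at the top). The horizontal axis is the log2 value minus the mean of the 2 LacZ RNAi arrays, colours mark the group and symbols the replicate. All 4 knockdown symbols lie left of both LacZ RNAi symbols in each row, as the selection requires, and for 1635227_at and MFS3 the LacZ RNAi arrays lie far apart.

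The 2 members with the lowest differences were unlike in their spread between replicates. CG10232 (1637358_at) read 7.75 and 7.86 in the CG9740 knockdown, 7.84 and 7.63 in the CP190 knockdown, and 9.66 and 10.26 in the LacZ control. The knockdown arrays lay close together and at least 1.80 below either LacZ RNAi array, with differences of -2.15 in the CG9740 knockdown and -2.22 in the CP190 knockdown (SE 0.18 each), or 4.44-fold and 4.67-fold lower. The unlisted 1635227_at read 9.58 and 7.16 in the CG9740 knockdown, 7.76 and 9.12 in the CP190 knockdown, and 9.89 and 11.53 in the LacZ control. Its differences of -2.34 and -2.27 (SE 0.81) come with a spread within each group of more than 1 on the log2 scale.

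Of these members limma called CG10232 lower in the CG9740 knockdown at an adjusted p under 0.05, 1 of 39, beside 0.016% of all probe sets called lower. In CP190 RNAi it called 2 of 39, CG10232 and CG33307, beside 0.0426% of all probe sets called lower. The members were chosen on these same differences, so the counts are given without any reading. They moved with single arrays, as did the number of all probe sets called in either direction. In CG9740 RNAi the count was 3 of 43 called without CG9740 RNAi replicate 1, 0 of 3 without CG9740 RNAi replicate 2 and 2 of 8 without LacZ RNAi replicate 1. The count in the CP190 knockdown was 6 of 37 called without either CG9740 RNAi replicate, 0 of 0 without CP190 RNAi replicate 1 and 1 of 2 without CP190 RNAi replicate 2. It was 5 of 22 without LacZ RNAi replicate 1 and 1 of 5 without LacZ RNAi replicate 2. CG10232 lost its call in both knockdowns without CP190 RNAi replicate 1 or 2, and CG33307 lost its call in the CP190 knockdown without CP190 RNAi replicate 1 or either LacZ RNAi replicate.

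By known role, MFS3, Argk1, Hph and Pfk act in transport, energy metabolism and oxygen sensing. MFS3 (1637772_at), a transporter of the major facilitator superfamily, read 7.96 and 6.87 in the CG9740 knockdown, 6.88 and 7.60 in the CP190 knockdown, and 8.16 and 9.89 in the LacZ control. Its differences were -1.61 and -1.79 (SE 0.55), but CG9740 RNAi replicate 1 was close to LacZ RNAi replicate 1. Argk1 (1625633_a_at), the arginine kinase that buffers ATP in insects, read 9.83 and 9.43 in the CG9740 knockdown, 8.90 and 9.19 in the CP190 knockdown, and 10.27 and 11.17 in the LacZ control. Every knockdown array was below the lower LacZ RNAi array by at least 0.4, and the differences were -1.09 and -1.68 (SE 0.27).

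Hph (1638797_a_at) encodes the prolyl hydroxylase that marks the hypoxia factor Sima for destruction when oxygen is present. It read 9.13 and 8.70 in the CG9740 knockdown, 8.58 and 9.16 in the CP190 knockdown, and 9.32 and 9.80 in the LacZ control, with differences of -0.65 and -0.70 (SE 0.23). Pfk (1634739_a_at), the phosphofructokinase of glycolysis, read 8.23 and 8.35 in the CG9740 knockdown, 8.09 and 8.37 in the CP190 knockdown, and 8.54 and 9.13 in the LacZ control. For Pfk the knockdown arrays were tightly grouped and the LacZ RNAi arrays were not, and the differences were -0.54 and -0.60 (SE 0.18).

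Of the glycolysis and lactate list, 10 of 13 genes were measured with 11 probe sets, and Pfk is the 1 member among them. No probe set of the list was called by limma in either knockdown. There were 2 in the CG9740 knockdown and 5 in the CP190 knockdown at an unadjusted p under 0.05, against 8.59% and 8.57% of all probe sets. Both counts include Pfk, which was chosen on these differences. The median difference of the list was -0.15 in both, and 8 of its 11 probe sets were lower in both knockdowns, as were 41.2% of all probe sets. Tret1-1, a trehalose transporter, differed by -0.27 in the CG9740 knockdown and -0.61 in the CP190 knockdown, and Hex-A, a hexokinase, by -0.38 and -0.15. Enolase (Eno) differed by 0.06 and 0.02, so the list did not move as a block.

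InR, sty, Csk, Ptp52F and mthl2 encode receptors or regulators of signalling. InR (1629141_at), the insulin receptor, read 9.11 and 8.95 in the CG9740 knockdown, 8.90 and 9.12 in the CP190 knockdown, and 9.32 and 9.68 in the LacZ control. Its differences of -0.47 and -0.49 (SE 0.14) were alike in size in both knockdowns. The sty gene (1635819_at) encodes Sprouty, an inhibitor of receptor tyrosine kinase signalling, and read 10.05 and 9.46 in the CG9740 knockdown, 9.68 and 10.23 in the CP190 knockdown, and 10.26 and 10.68 in the LacZ control. CP190 RNAi replicate 2 lay only 0.03 below LacZ RNAi replicate 1 for sty, whose differences were -0.72 and -0.52 (SE 0.24).

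Csk (1639039_at), the kinase that restrains Src family kinases, read 8.75 and 8.57 in the CG9740 knockdown, 8.28 and 8.81 in the CP190 knockdown, and 8.94 and 9.54 in the LacZ control. Ptp52F (1639152_at), a receptor tyrosine phosphatase known from axon guidance, read 6.48 and 6.26 in the CG9740 knockdown, 6.21 and 6.75 in the CP190 knockdown, and 6.80 and 7.34 in the LacZ control. In both genes CP190 RNAi replicate 2 was the highest knockdown array and close to LacZ RNAi replicate 1. Their differences were -0.58 and -0.69 for Csk (SE 0.22) and -0.70 and -0.59 for Ptp52F (SE 0.21). The methuselah-like receptor mthl2 (1636333_a_at) read 7.23 and 6.57 in the CG9740 knockdown, 6.54 and 6.90 in the CP190 knockdown, and 7.48 and 7.74 in the LacZ control, with differences of -0.71 and -0.89 (SE 0.21).

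DAAM, wun2, Mmp2, PH4alphaEFB, Ten-m and Lac encode proteins with roles in the cytoskeleton, the matrix or at the cell surface. DAAM (1629015_a_at), a formin that assembles actin filaments, read 6.11 and 5.48 in the CG9740 knockdown, 5.66 and 6.13 in the CP190 knockdown, and 7.28 and 7.45 in the LacZ control. The LacZ RNAi arrays agreed closely and lay more than 1 above every knockdown array. Its differences were -1.57 and -1.47 (SE 0.22), with both knockdown means below the brightest Bacillus control. The wun2 gene (1641598_at), a lipid phosphate phosphatase that guides germ cells, read 7.58 and 8.08 in the CG9740 knockdown, 7.45 and 7.93 in the CP190 knockdown, and 8.48 and 8.63 in the LacZ control. Its differences were -0.73 and -0.86 (SE 0.20).

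Mmp2 (1623299_at), a matrix metalloproteinase, and PH4alphaEFB (1628705_at), a prolyl hydroxylase of collagen, were among the brightest members. Mmp2 read 10.60 and 10.26 in the CG9740 knockdown, 10.23 and 10.61 in the CP190 knockdown, and 10.77 and 11.09 in the LacZ control. PH4alphaEFB read 11.34 and 10.75 in the CG9740 knockdown, 10.96 and 11.30 in the CP190 knockdown, and 11.42 and 11.75 in the LacZ control. Both had 1 array of each knockdown close to LacZ RNAi replicate 1, with differences of -0.50 and -0.50 for Mmp2 (SE 0.17) and -0.54 and -0.45 for PH4alphaEFB (SE 0.20). The transmembrane protein Ten-m, a teneurin (1623490_at), differed by -0.67 and -0.50 (SE 0.19), and Lac (1628336_a_at), an immunoglobulin protein of septate junctions, by -0.46 and -0.47 (SE 0.17).

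Sr-CIV and Itgbn encode receptors of the cell surface. Sr-CIV (1624817_at), a class C scavenger receptor, read 8.17 and 8.13 in the CG9740 knockdown, 8.12 and 8.26 in the CP190 knockdown, and 8.66 and 8.64 in the LacZ control. It had the smallest spread of the members (SE 0.09) with differences of -0.50 and -0.46. Itgbn (1630699_at), the integrin subunit used in phagocytosis, read 7.87 and 7.83 in the CG9740 knockdown, 7.73 and 7.48 in the CP190 knockdown, and 8.16 and 8.44 in the LacZ control. Itgbn differed by -0.45 and -0.69 (SE 0.12), and its highest knockdown array lay 0.28 below its lower LacZ RNAi array.

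No gene of the 14 on the hemocyte list is a member. In its 15 probe sets limma called 0 in either knockdown. There were 4 in the CG9740 knockdown and 2 in the CP190 knockdown at an unadjusted p under 0.05, against 8.59% and 8.57% of all probe sets. The median difference was -0.20 in the CG9740 knockdown and -0.10 in the CP190 knockdown. In both knockdowns 10 of the 15 probe sets were lower, as were 41.2% of all probe sets. Hml (hemolectin, a clotting protein) differed by -0.44 and -1.02, Col4a1 (a collagen chain) by -0.96 and -0.30, and He (hemese) by -0.03 and 0.31, none of which passed the test. In such bulk RNA, fewer cells of a kind and less RNA per cell cannot be told apart.

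The remaining members include genes with little known background. CG33307 (1623813_at) read 10.10 and 10.07 in the CG9740 knockdown, 9.58 and 10.01 in the CP190 knockdown, and 11.15 and 11.10 in the LacZ control. Its LacZ RNAi arrays agreed to 0.05 and its differences were -1.04 and -1.33 (SE 0.14). CG43446 (1638015_at) read 6.98 and 7.64 in the CG9740 knockdown, 6.62 and 6.62 in the CP190 knockdown, and 7.97 and 7.72 in the LacZ control. CG9740 RNAi replicate 2 was almost level with LacZ RNAi for CG43446, whose differences were -0.54 and -1.23 (SE 0.19).

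CG32982 was the single gene with 2 members. Its 1634406_at read 6.34 and 6.02 in the CG9740 knockdown, 5.60 and 5.83 in the CP190 knockdown, and 6.66 and 6.83 in the LacZ control. Its 1634315_a_at read 7.63 and 7.20 in the CG9740 knockdown, 6.96 and 7.08 in the CP190 knockdown, and 7.77 and 7.95 in the LacZ control. In both probe sets the order of the groups was the same, LacZ RNAi highest and CP190 RNAi lowest, with differences of -0.57 and -1.03 (SE 0.13) and of -0.45 and -0.84 (SE 0.14).

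CG6330 (1640363_a_at) and 1637182_at rested on a single LacZ RNAi array. CG6330 read 9.36 and 9.17 in the CG9740 knockdown, 9.08 and 9.33 in the CP190 knockdown, and 9.40 and 10.51 in the LacZ control. The unlisted 1637182_at read 5.26 and 5.29 in the CG9740 knockdown, 5.14 and 5.25 in the CP190 knockdown, and 5.54 and 6.81 in the LacZ control. In both, LacZ RNAi replicate 1 was close to the knockdown arrays and replicate 2 stood more than 1 above it. CG34030 (1635873_at) read 6.22 and 5.86 in the CG9740 knockdown, 5.88 and 5.58 in the CP190 knockdown, and 6.37 and 6.65 in the LacZ control. The unlisted 1624070_at read 9.69 and 9.59 in the CG9740 knockdown, 9.44 and 9.42 in the CP190 knockdown, and 9.82 and 10.48 in the LacZ control, while 1641693_s_at read 9.97 and 9.22 in the CG9740 knockdown, 9.59 and 9.94 in the CP190 knockdown, and 10.35 and 10.44 in the LacZ control. The differences were -0.47 and -0.78 for CG34030 (SE 0.16), -0.51 and -0.72 for 1624070_at (SE 0.18) and -0.80 and -0.63 for 1641693_s_at (SE 0.22). For 1641693_s_at the LacZ RNAi arrays agreed and both knockdowns were spread. The rest of the list, which holds mtd (a TLDc domain protein), Dph1 (diphthamide synthesis), SF1 (a splicing factor), Sfp26Ad (a seminal fluid protein), Reg-5, l(3)neo38, CG18622, CG30046, CG2765, CG8501 and 1641227_at, had differences between -0.70 and -0.40.

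Near the limits of the selection, members and other probe sets read almost alike. Just inside the limit on the difference were SF1 (weaker difference -0.40), CG30046 (-0.40) and Reg-5 (-0.41), and just outside were CG7737 (-0.40), CG9265 (-0.39) and vir-1 (-0.38). Just inside the limit on the level were 1637182_at (highest group mean 6.17), l(3)neo38 (6.39) and Sfp26Ad (6.48), and just outside were 1623062_at (5.97), crb (5.89) and CG9815 (5.83). Reg-5, sty and CG6330 cleared the lower LacZ RNAi array by the smallest margins, 0.01 to 0.04. Orct2, CG10383 and Treh, a trehalase, met every other condition and overlapped it by 0.01 to 0.03. In all, 852 probe sets missed only the limit on the difference, 14 only that on the level and 14 only that on single arrays.

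Members shared a pattern between the replicates of a group. The selection did not ask for these directions, but it used the value of every array, so the pattern is not independent of it. LacZ RNAi replicate 2 was above replicate 1 in 35 of 39 members (89.7%), against 58.2% of the 8961 probe sets with a group mean of at least 6. CG9740 RNAi replicate 2 was below replicate 1 in 32 (82.1% against 46.8%), and CP190 RNAi replicate 2 was above replicate 1 in 34 (87.2% against 53.8%). All 3 directions together occurred in 26 members (66.7% against 20.1%). Each direction named is the one that most members took, which favours a high share among them. Members are not independent of each other, so no p-value is given.

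These differences within groups were smaller than the median differences of -0.58 and -0.61 to LacZ RNAi. The selection itself required -0.4 or less for the latter, so that order is given without any reading. Members' replicates differed by a median size of 0.25 in the CG9740 knockdown, 0.30 in the CP190 knockdown and 0.34 in the LacZ control. Over the probe sets with a group mean of at least 6 that size was 0.10 in every group, so members varied more between replicates. The median member had replicate 2 minus replicate 1 at -0.22 in the CG9740 knockdown, 0.30 in the CP190 knockdown and 0.34 in the LacZ control, against 0.01, 0.01 and 0.03 over the probe sets with a group mean of at least 6. As deviations from each member's mean over the 6 arrays, the median member stood at -0.05 and -0.27 in the CG9740 knockdown, -0.36 and -0.08 in the CP190 knockdown, and 0.24 and 0.61 in the LacZ control. LacZ RNAi replicate 1 thus lay between LacZ RNAi replicate 2 and the knockdown arrays. Among the 78 probe sets found by the mirrored conditions, which used the same arrays, 0 showed these 3 directions together, and 59 showed the opposite of all 3.

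**Figure D2:**
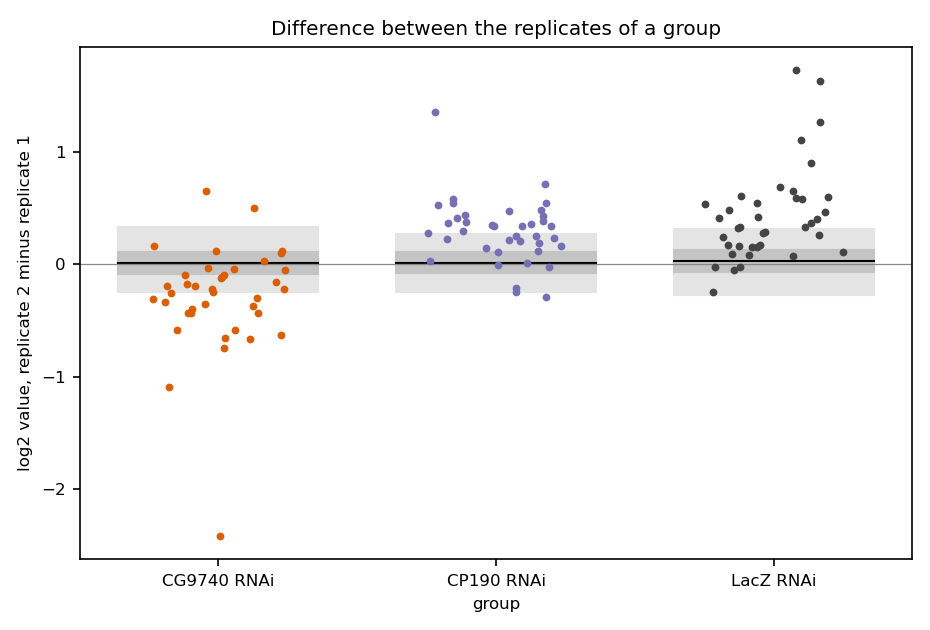
Replicate 2 minus replicate 1 on the log2 scale in each group, with 1 point per member. The dark grey box spans the 25th to 75th percentile, the light grey box the 5th to 95th percentile and the black line the median of the 8961 probe sets with a group mean of at least 6. Members lie mostly below 0 in the CG9740 knockdown and mostly above 0 in the CP190 knockdown and LacZ RNAi.

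Exceptions to the shared pattern included members with close replicates and members whose replicates lay apart. CG10232 differed between replicates by 0.10, -0.21 and 0.60 in CG9740, CP190 and LacZ RNAi, CG33307 by -0.03, 0.43 and -0.05, and Sr-CIV by -0.04, 0.14 and -0.02. CG43446 ran the opposite way in CG9740 and LacZ RNAi, with its CP190 RNAi arrays level. The 3' minus 5' difference of 5 mRNA control sets, a sign of RNA integrity and amplification, was 1.24 and 1.26 in the CG9740 knockdown, 1.29 and 1.19 in the CP190 knockdown, and 1.31 and 1.18 in the LacZ control. In each group the array with the higher member levels had the lower value, though between groups the values did not order in that way. Control sets of 18S rRNA gave 3' minus 5' values of 1.48 and 1.90 on the CG9740 RNAi arrays, 1.59 and 1.59 on the CP190 RNAi arrays, and 1.43 and 1.53 on the LacZ RNAi arrays. These were lower on the array with the higher members in CG9740 RNAi, level in CP190 RNAi and higher in LacZ RNAi. Whether RNA integrity has a part in the members' levels was not tested.

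Because 1 array can decide membership, the selection was repeated without each array, and the probe sets then found were read on the array left out. These readings still share arrays with the selection. With CG9740 RNAi replicate 1 left out 52 probe sets were found, and on that array 41 of them (78.8%) lay below both LacZ RNAi arrays, against 32.1% of probe sets with a group mean of at least 6. The share was 28 of 33 for CG9740 RNAi replicate 2 (84.8% against 37.0%), 26 of 26 for CP190 RNAi replicate 1 (100% against 34.8%) and 48 of 65 for CP190 RNAi replicate 2 (73.8% against 28.2%). All these readings keep the shared LacZ RNAi arrays, which favour low values on the left-out array.

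Leaving out a LacZ RNAi array removes its own noise from the choice. The 4 knockdown arrays read against it were still chosen for low values, which favours the same outcome. Without LacZ RNAi replicate 1 the conditions found 199 probe sets, and all 4 knockdown arrays lay below that array in 103 of them (51.8% against 16.1%), with a median difference of -0.19. Without LacZ RNAi replicate 2 they found 20, and all 4 knockdown arrays lay below it in 16 (80.0% against 28.6%), with a median difference of -0.82. All 39 members were among the 199, but 14 of the 39 were among the 20. Without LacZ RNAi replicate 2 most members therefore no longer met the conditions.

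**Figure D3:**
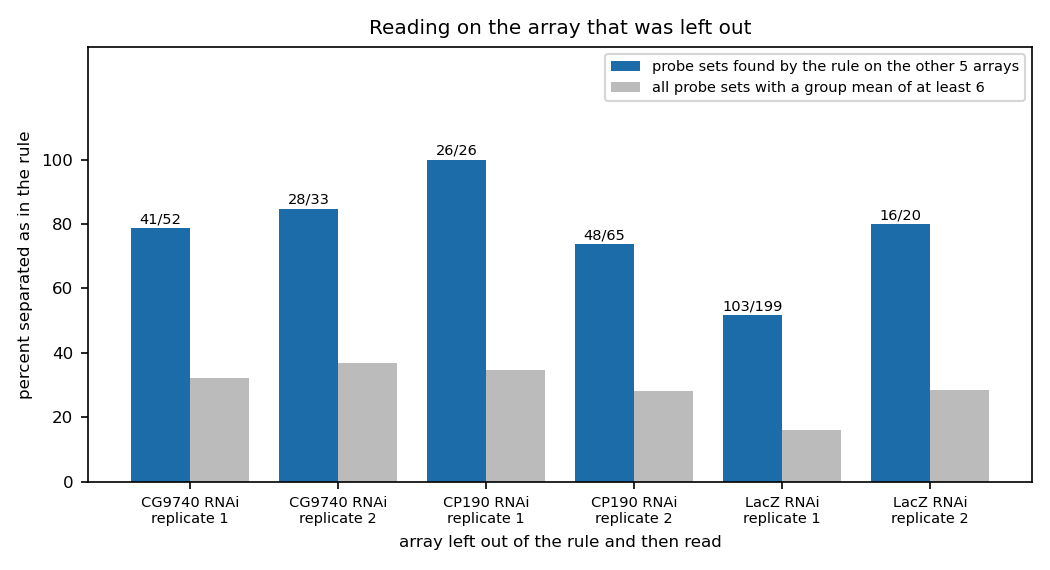
For each array left out of the selection, the blue bar gives the percent of newly found probe sets that were separated on that array as in the selection, with counts above the bar. A left-out knockdown array had to lie below both LacZ RNAi arrays, and a left-out LacZ RNAi array above all 4 knockdown arrays. Grey bars give the same percent for all probe sets with a group mean of at least 6, and every blue bar is above its grey bar, most narrowly in points for LacZ RNAi replicate 1.

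In 10 members the conditions were met whichever array was left out. These were CG10232, MFS3, DAAM, Argk1, CG33307, wun2, Hph, CG32982 (1634406_at), 1635227_at and 1641693_s_at. They are the steadiest part of the list in this sense, although 1635227_at and MFS3 qualify through size and not through close replicates.

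CG9740 RNAi was compared directly with CP190 RNAi to see whether members differed between the knockdowns. The selection did not use this comparison itself, but it required a difference to LacZ RNAi of at most -0.4 in each knockdown. A probe set lowered in a single knockdown could not be a member, which favours small differences here. The median difference, CG9740 RNAi minus CP190 RNAi, was 0.05, and 25 members were higher and 14 lower in the CG9740 knockdown, where 54.9% of all probe sets were lower. In 34 members the size of the difference was at most 0.3. The share of all probe sets within that size was not computed, so this count is given without any reading. Of the 39 members limma called 0, beside 0.0799% of all probe sets. At an unadjusted p under 0.05 there were 3 members (7.69%, against 4.64% of all probe sets), CG43446 and both probe sets of CG32982.

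Those 3 were higher in the CG9740 knockdown, by 0.69 for CG43446 (95% interval 0.25 to 1.13), 0.47 for 1634406_at (0.16 to 0.77, with a CP190 RNAi mean below the brightest Bacillus control) and 0.39 for 1634315_a_at (0.06 to 0.72), with limma adjusted p of at least 0.817. Argk1 was 0.58 higher in the CG9740 knockdown with an interval of -0.03 to 1.20. The intervals were narrower for members with close replicates, such as Sr-CIV (-0.04, -0.25 to 0.16), SF1 (0.03, -0.24 to 0.30) and InR (0.02, -0.30 to 0.34). For 1635227_at the interval ran from -1.93 to 1.79, so a difference of several fold in either direction was not detectable. A test that is not passed does not show that the knockdowns had equal levels.

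**Figure D4:**
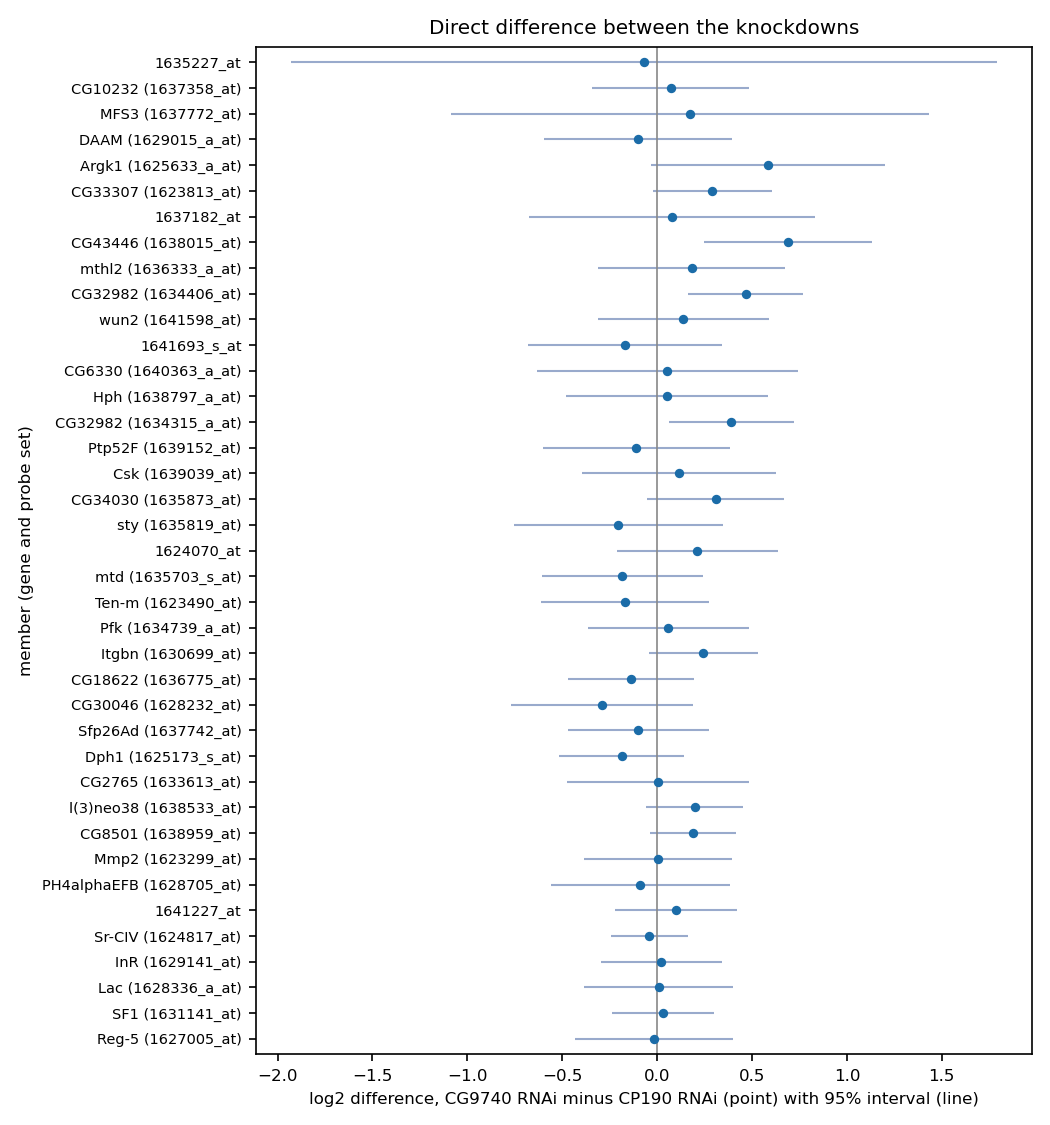
Difference between the knockdowns for each member, CG9740 RNAi minus CP190 RNAi on the log2 scale, with the 95% interval of the limma fit to 6 arrays. Intervals of CG43446 and of both CG32982 probe sets lie above 0 before adjustment, and those of the other 36 members include 0.

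Other probe sets of the members' genes gave a measure that the selection did not use, on the same RNA. There were 11 such probe sets for 8 genes, 6 of them lower in both knockdowns (41.2% of all probe sets were) and 2 with all 4 knockdown arrays below both LacZ RNAi arrays (10.9% of all). Among the 9 with a group mean of at least 6 these counts were 4 and 1. Their median difference was -0.27 in the CG9740 knockdown and -0.28 in the CP190 knockdown, and limma called 0 in either. At a limma unadjusted p under 0.05 there were 3 in the CG9740 knockdown, all lower, and 4 in the CP190 knockdown. Of these 4 the probe set of Hph was higher, and the others were lower. Of all probe sets, 8.59% in the CG9740 knockdown and 8.57% in the CP190 knockdown were under that limit in either direction. Csk 1624464_s_at read 9.67 and 9.63 in the CG9740 knockdown, 9.57 and 9.70 in the CP190 knockdown, and 9.78 and 10.05 in the LacZ control. Mmp2 1637726_at differed by -0.50 and -0.41, and mtd 1632983_s_at by -0.66 and -0.44, close to the members of those genes. The second probe set of sty, 1635677_a_at, differed by -0.64 and -0.33.

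Other pairs disagreed. Hph 1624497_at read 7.77 and 7.53 in the CG9740 knockdown, 8.35 and 8.80 in the CP190 knockdown, and 7.83 and 8.37 in the LacZ control. It was lower in the CG9740 knockdown by 0.45 but higher in the CP190 knockdown by 0.48, where the member of Hph differed by -0.70. The 3 other probe sets of l(3)neo38 differed by 0.04 to 0.16 in the CG9740 knockdown and by -0.24 to -0.19 in the CP190 knockdown, while its member differed by -0.42 and -0.61. A further mtd probe set, 1626842_a_at, differed by 0.02 and 0.08. Which transcripts of a gene each probe set measures is not given in the sources used here.

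**Figure D5:**
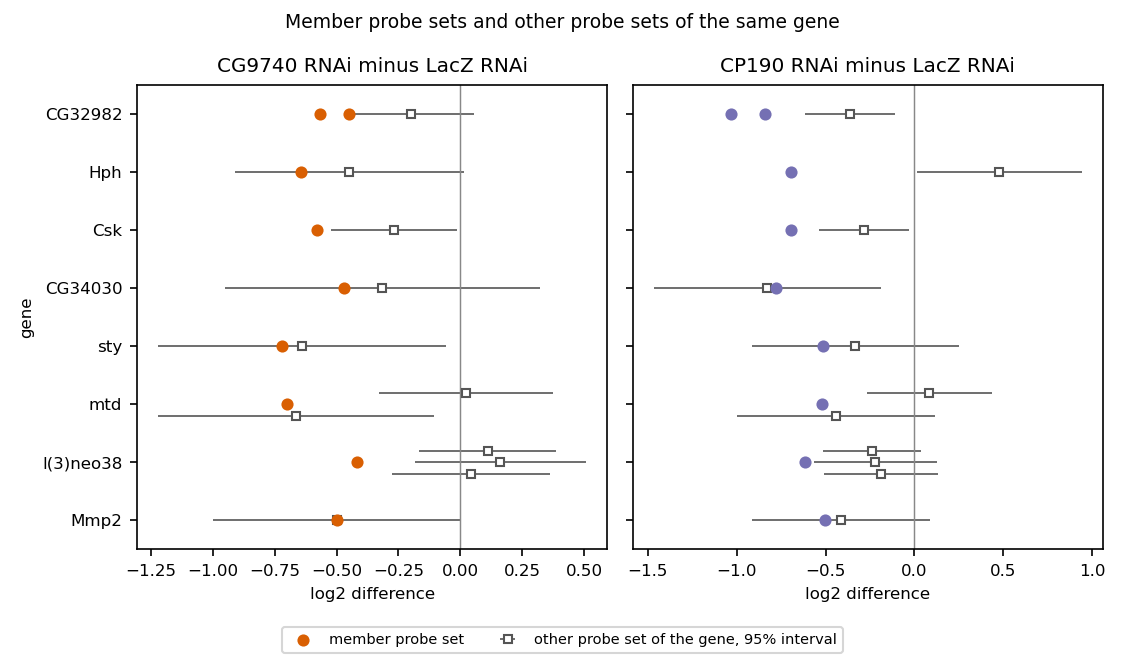
Filled circles are members and open squares other probe sets of the same gene with their 95% interval, for CG9740 RNAi minus LacZ RNAi (left) and CP190 RNAi minus LacZ RNAi (right) on the log2 scale. Squares lie near the circles for sty, Mmp2 and 1 probe set of mtd, and on the other side of 0 for Hph in the CP190 knockdown.

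Genes next to the members were examined because insulators act between neighbours. The 33 member genes have 66 neighbouring places among protein-coding genes in RefSeq order, and 0 of these places hold another member. The share over all genes was not computed, so this count is given without any reading. Hph and mtd are 2 places apart, with Tim17a2, a mitochondrial import gene that differed by -0.28 and -0.11, between them. Neighbours with a group mean of at least 6 were 35 genes with 37 probe sets, whose median difference was 0.01 in the CG9740 knockdown and -0.01 in the CP190 knockdown. Of these 37, limma called 0 in either knockdown, with 6 in each (16.2%) at an unadjusted p under 0.05, against 8.59% and 8.57% of all probe sets. Those 2 shares include dimmer probe sets, and the share at a group mean of at least 6 is not given here. The 6 did not share a direction. In both knockdowns wun and mIF3 were higher, and CenG1A and CG9265 were lower. Tim17a2 and CG32450 were also lower in the CG9740 knockdown, and nau and ETH in the CP190 knockdown. CenG1A, CG9265, Tim17a2 and CG32450 overlap a member gene in RefSeq, as do 10 of the 66 neighbouring places. All 4 knockdown arrays lay below both LacZ RNAi arrays in 5 (13.5%, against 9.94% of probe sets with a group mean of at least 6 and 10.9% of all).

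Among those 5, CenG1A beside CG33307 read 7.69 and 7.40 in the CG9740 knockdown, 7.23 and 7.11 in the CP190 knockdown, and 7.78 and 7.94 in the LacZ control, and CG9265 beside Itgbn differed by -0.39 and -0.48. Both overlap the member gene in RefSeq, and whether the probes overlap was not tested. The other 3 were nau, a muscle transcription factor gene beside CG10232 (-0.22 and -0.31), ETH beside Reg-5 (-0.19 and -0.30) and eIF5B beside sty (-0.16 and -0.10). A contrasting pair was wun2 and its neighbour and paralog wun. The wun probe set read 7.07 and 7.39 in the CG9740 knockdown, 7.18 and 7.11 in the CP190 knockdown, and 6.87 and 6.87 in the LacZ control. It was higher by 0.36 and 0.27, without passing the test (limma adjusted p 0.580 and 0.579), while wun2 was lower by 0.73 and 0.86.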

How the data were processed

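The authors deposited log2 expression values, made with GCOS and RMA (robust multi-array average), per the submitters' processing notes. How RMA was run is not stated there, and the values themselves gave the log2 scale. The number of arrays limits the precision. Probe sets of controls (183) were left out of the tests, which leaves 18769. Genes were taken from the platform annotation (13646 probe sets with 1 gene, 403 with several, 4720 unlisted), with symbols updated through RefSeq gene IDs of the Release 6 assembly (13543 matched). Group means were estimated from the 6 arrays together with limma 3.58.1 in R 4.3.3 (eBayes, two-sided, Benjamini-Hochberg over 18769 probe sets, adjusted p under 0.05), after testing it on simulated data. An SE is that of a difference in this fit, and is equal for the 3 comparisons of a probe set. Array values carry no error of their own, and n is 2 per group.

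Named were the 20 members with the lowest mean difference, called members, those nearest each limit, members of the gene lists and both target genes. Members beyond this rule, other probe sets and neighbours were chosen after their values were seen. The members and lists were chosen with earlier results of these data known. Deviations of same-numbered arrays from their group means had correlations of -0.18 for CG9740 with CP190, -0.31 for CG9740 with LacZ and 0.16 for CP190 with LacZ, so the numbers were not taken to pair arrays.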

Additional observations from a re-analysis of the deposited data

Results flagged for a closer look

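The direct comparison of CG9740 RNAi with CP190 RNAi passed the test for 3 probe sets named above, none of them a member. Ibf2 differed by -2.25 (limma adjusted p 0.00105) and Cp190 by 1.95 (limma adjusted p 0.000551), each lower in the knockdown that targets it. Ibf1, the gene beside Ibf2, was 0.97 higher in CG9740 RNAi (limma adjusted p 0.0121).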

How the results depend on the processing

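The number of members was 82 with a limit of -0.3 on the difference and 22 with -0.5, and 20 to 199 when 1 array was left out. It was 46 with quantile normalization, 34 with median centring, 51 and 33 with a level of at least 5 or 7, and 53 without the condition on single arrays. Members called in CG9740 RNAi, 1 with the original settings, were 2 with a trended robust variance and 0 to 3 with 1 array left out. Those in CP190 RNAi, originally 2, were 5 with the trended robust variance, 6 with only the arrays of the compared groups and 0 to 6 with 1 array left out. With the replicate block the counts were 0 and 0, where 4 and 2 of all probe sets were called. With the CG9740 numbers crossed, chosen after seeing the data, they were 14 and 17, where 72 and 134 of all were called. In the direct comparison 0 members were called under every one of these settings. With an array left out, a lone array is assumed to vary like the other groups. The causes of these changes were not tested.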

Other observations

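Other gene lists held no member. Of 40 probe sets of insulator and architectural proteins, limma called those of the RNAi targets as lower in their own knockdown and Ibf1 as higher in the CG9740 knockdown, and the median difference was -0.12 in the CG9740 knockdown and -0.04 in the CP190 knockdown. BEAF-32 (-0.06 and -0.04), su(Hw) (-0.21 and -0.15) and Trl (-0.03 and -0.02), which encode DNA-binding insulator or chromatin proteins, did not pass the test. In the other lists limma called 0 probe sets in either knockdown. Their median differences in the CG9740 and CP190 knockdowns were 0.05 and 0.00 for 16 probe sets of immune effectors and signalling, 0.05 and 0.00 for 11 of heat shock and stress, -0.09 and 0.01 for 11 of cell cycle and replication, and 0.06 and 0.00 for 2 histone probe sets. They were 0.00 and -0.06 for 18 of the ecdysone response, -0.12 and -0.07 for 13 of centrosome and spindle, 0.02 and 0.00 for 6 of Hox genes, and 0.10 and 0.06 for 8 of the PIWI and RNAi pathway. At an unadjusted p under 0.05 the immune list held 4 of 16 probe sets in the CG9740 knockdown and 2 in the CP190 knockdown. The heat shock list held 2 of 11 and the ecdysone list 2 of 18 in each knockdown. Each remaining list of these held at most 1 in a knockdown. Of all probe sets, 8.59% in the CG9740 knockdown and 8.57% in the CP190 knockdown were under that limit.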
